A study of Bos taurus with 90 samples.

Results

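The rumen epithelium of dairy cows fed alfalfa hay was compared with that of cows fed crop residues, namely rice straw and corn stover as 1 group. The members were all 340 miRNAs listed for rumen in the deposited values in CPM, the reads of a miRNA scaled to a fixed total of mapped miRNA reads, measured in 18 rumen libraries out of the 90 libraries of the series. Each diet group held 6 cows, so 6 libraries of alfalfa hay stood against 12 libraries of crop residues. The animals were mid-lactation Chinese Holstein cows, and duodenum, jejunum, liver and mammary gland were taken from the same cows. The labels give no age, genotype, batch or sequencing lane. The total of mapped miRNA reads recovered from the CPM steps was 2337879 to 9024345 per rumen library, so that 3 reads were worth between 0.332 and 1.28 CPM, and the ranges of the 3 diets overlapped.

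A microRNA recognises its target transcripts mainly through the seed, a short stretch near its 5′ end, and lowers the protein made from them. Members of one family share a seed, and many families lie in clusters that are transcribed together. The rumen wall is lined by a stratified squamous epithelium that absorbs the short-chain fatty acids released by fermentation of forage, and a legume hay and a cereal residue differ in what they offer to that fermentation.

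The tissue label was checked against miR-205, a miRNA of stratified squamous epithelium. miR-205 was at 23016 to 52132 CPM in the 18 rumen libraries, against at most 5.07 CPM in duodenum and at most 8442 CPM in mammary gland. The smooth muscle miRNAs miR-143 and miR-145 together held 118233 to 243920 CPM in the same rumen libraries, and miR-122, the main miRNA of hepatocytes, was not among the miRNAs listed for rumen.

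Before the diets are compared, 4 of the 6 alfalfa hay libraries have to be described, because they stood apart from all other rumen libraries. On the first principal component of the tested miRNAs, which held 26.6% of the variance, alfalfa hay libraries 1, 4, 5 and 6 lay between 7.53 and 10.6. The other 14 libraries lay between -6.68 and 1.06, and alfalfa hay libraries 2 and 3 were among them. No cause of this split is given in the labels, and whether it follows the diet or something else that those 4 cows or libraries shared cannot be told apart here. The component was led by miR-1271, miR-100, miR-2887, miR-99b and miR-874, which are all among the calls below. The calls are given with and without these 4 libraries, which leaves 2 alfalfa hay libraries in the second case. Because the 4 libraries were picked on the same values that are tested, the loss of calls without them was largely set by that choice. It is no separate test of the diet difference.

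**Figure D1:**
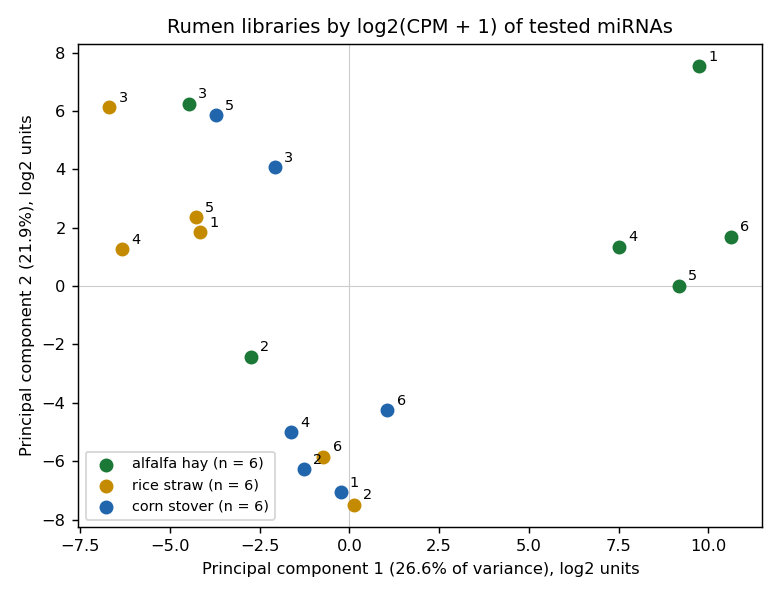
Position of the 18 rumen libraries on the first and second principal components of log2(CPM + 1), in log2 units, coloured by diet and numbered by replicate. Alfalfa hay libraries 1, 4, 5 and 6 lie at 7.53 to 10.6 on the first component, and no other library lies above 1.06.

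Of the 335 miRNAs with a CPM above 1 in more than 50% of the rumen libraries, 22 passed an adjusted p of 0.05 for alfalfa hay against crop residues, which is 6.57% of those tested. The level was higher with alfalfa hay for 5 of them (miR-1271, miR-100, miR-99b, miR-153 and miR-141) and lower for 17, among them miR-21-5p, miR-92a, miR-155 and miR-142-3p, which is 1.49% and 5.07% of those tested. At an unadjusted p under 0.05 there were 86. The median log2 fold change of all 335 was -0.16, and it moved to -0.01 with upper-quartile scaling and to -0.04 with trimmed-mean (TMM) scaling. With these scalings the calls were 10 higher and 5 lower, and 5 higher and 5 lower, respectively. The same 10 of the 22 miRNAs (miR-100, miR-99b, miR-1271, miR-153, miR-141, miR-331, miR-155, miR-130b, miR-454 and miR-326) passed under both scalings, so that 12 of the 17 lower calls were lost under both. Without alfalfa hay libraries 1, 4, 5 and 6, limma called 0 miRNAs, with 5 at an unadjusted p under 0.05, and the adjusted p of each of the 22 was 0.995 or above. No miRNA of the 335 had all 6 alfalfa hay libraries outside the range of the 12 crop residue libraries.

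**Figure D2:**
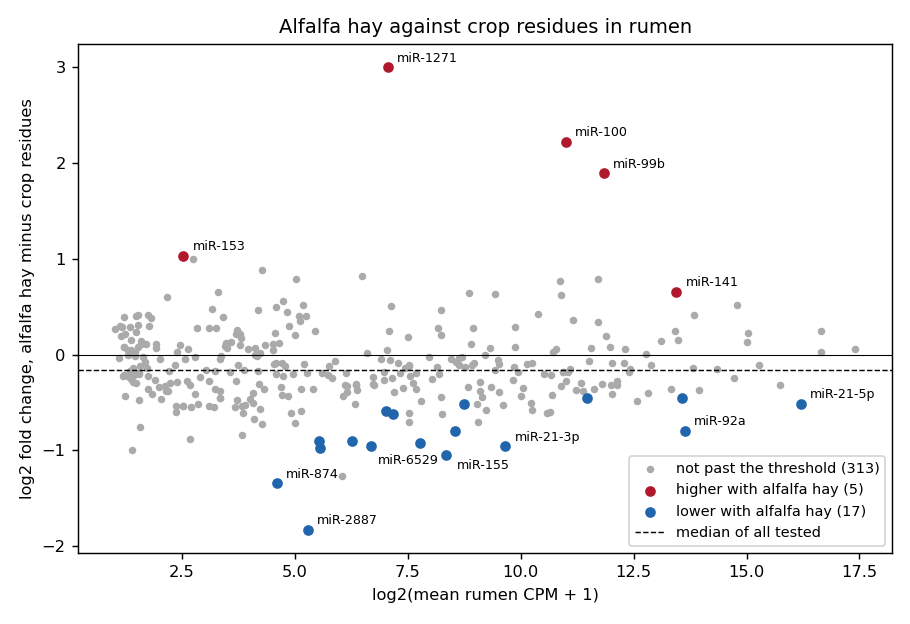
log2 fold change of alfalfa hay against crop residues for the 335 tested miRNAs, plotted against log2 of the mean rumen CPM + 1. The 5 higher miRNAs are red, the 17 lower ones are blue, and the dashed line marks the median of all tested miRNAs at -0.16.

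Among the 5 higher miRNAs, miR-1271 showed the widest gap. It shares its seed with miR-96 of the miR-183 cluster, a group best known from sensory cells. Its level in alfalfa hay libraries 1 to 6 was 759, 15.8, 20.3, 351, 653 and 346 CPM. In the 12 crop residue libraries it ranged from 12.4 to 26.9 CPM, with a median of 21.0 CPM. Even the lowest of the 4 libraries that stand apart (346 CPM) was above the highest of all other rumen libraries (26.9 CPM), while alfalfa hay libraries 2 and 3 lay inside the crop residue range. This gave a log2 fold change of 3.00 ± 1.34 (here and below, ± reaches from the estimate to either end of its 95% confidence interval) with an adjusted p of 0.0110, and of -0.14 without the 4 libraries.

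The miR-183 cluster itself (miR-182, miR-183 and miR-96) had no member past the threshold, and 2 of the 3 were under an unadjusted p of 0.05. miR-183 had the largest difference of the 3. It was at 745, 280, 340, 288, 735 and 1683 CPM in alfalfa hay libraries 1 to 6, against 261 to 464 CPM (median 333) with crop residues. Libraries 1, 5 and 6 were above every crop residue library and the other 3 were within their range, a log2 difference of 0.64 ± 0.59 (adjusted p = 0.152). miR-96, which has the seed of miR-1271, was at 13.9 to 62.3 CPM with alfalfa hay and at 12.4 to 29.9 CPM with crop residues, a log2 difference of 0.49 ± 0.54 (adjusted p = 0.237). miR-182, the most abundant of the cluster, was at 1264 to 2947 CPM against 2084 to 3923 CPM, a log2 difference of -0.38 ± 0.34 (adjusted p = 0.146).

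miR-100 and miR-99b belong to one seed family, known for targeting the growth regulator mTOR. The level of miR-100 in alfalfa hay libraries 1 to 6 was 9339, 708, 937, 4485, 6522 and 6500 CPM, against 503 to 972 CPM (median 648) in the crop residue libraries. That of miR-99b was 14009, 1870, 1610, 7216, 9291 and 13008 CPM, against 1167 to 2401 CPM (median 1495). The same 4 libraries were above all crop residue libraries for both miRNAs, and libraries 2 and 3 were not. The log2 fold changes were 2.22 ± 0.90 for miR-100 and 1.90 ± 0.78 for miR-99b, each with an adjusted p of 0.00960, and they were 0.23 and 0.16 without the 4 libraries.

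In many vertebrates miR-99b lies beside let-7e and miR-125a, and miR-100 lies beside a let-7a gene and miR-125b, so the miR-99, miR-100 and miR-125 miRNAs were taken as one list. Of its 6 tested members, 2 passed the threshold, both higher, where 1.49% of all miRNAs tested were called higher. The list's median log2 fold change was 0.78, and its summed level was 35673, 7611, 8879, 16113, 26210 and 31042 CPM in alfalfa hay libraries 1 to 6, against 4908 to 10136 CPM with crop residues. miR-125a (0.79 ± 0.51, adjusted p = 0.0589), miR-125b (0.77 ± 0.52, adjusted p = 0.0684) and miR-99a-5p (0.63 ± 0.49, adjusted p = 0.0995) missed the threshold. Their levels did not set library 4 apart, since it held 2350 CPM of miR-125a, within the crop residue range of 1610 to 4189 CPM. let-7e had a log2 difference of -0.26 ± 0.33 (adjusted p = 0.3005). The sequences of miR-99a, miR-99b and miR-100 are close, so reads with mismatches could have been shared between them.

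miR-153, a miRNA best known from neurons and endocrine cells, was rare. It was at 16.98, 3.02, 5.76, 6.09, 8.92 and 7.70 CPM in alfalfa hay libraries 1 to 6, against 1.90 to 4.995 CPM (median 2.63) with crop residues, and only library 2 lay within the crop residue range. Its log2 fold change was 1.03 ± 0.53 (adjusted p = 0.0243), and it was 0.38 without the 4 libraries.

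miR-141 belongs to the miR-200 family, which maintains the epithelial state by repressing ZEB1 and ZEB2. It was at 23533, 11586, 10495, 9255, 20848 and 15174 CPM in alfalfa hay libraries 1 to 6, against 6069 to 11711 CPM (median 8914) with crop residues. Libraries 1, 5 and 6 were above every crop residue library, and library 4 was the lowest of the alfalfa hay group. The log2 fold change of 0.66 ± 0.37 (adjusted p = 0.0385) was 0.29 without the 4 libraries, and the adjusted p was 0.0631 when the spread was estimated per diet. miR-141 was the only one of 5 tested miR-200 family members past the threshold, where 1.49% of all tested were called higher, and the family's median log2 fold change was 0.11.

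**Figure D3:**
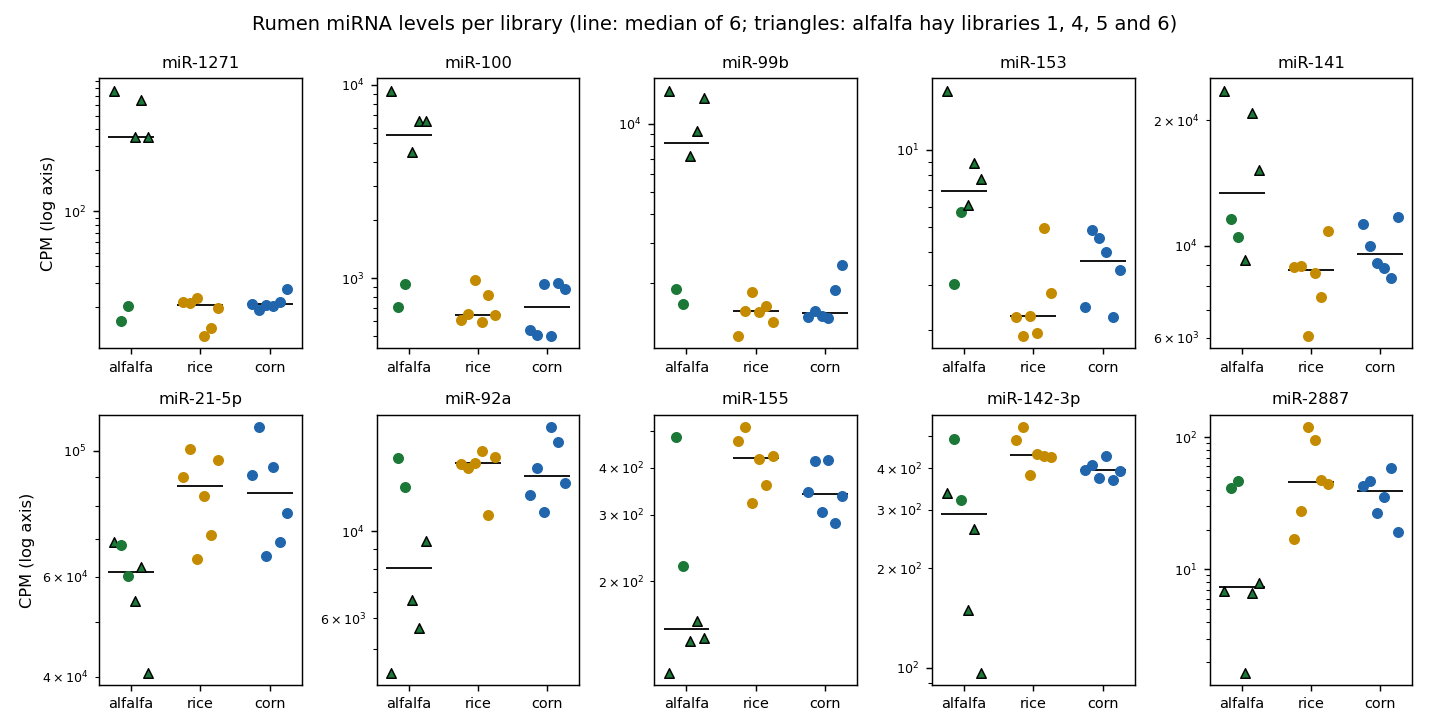
CPM of 10 miRNAs in each rumen library on log axes, by diet, with lines at the medians of 6 and triangles for alfalfa hay libraries 1, 4, 5 and 6. For miR-1271, miR-100 and miR-99b the triangles lie above all other points, whereas for miR-92a, miR-155, miR-142-3p and miR-2887 they lie below all crop residue points.

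The log2 fold changes of the 17 lower miRNAs ran from -1.83 (miR-2887) to -0.45 (miR-148a). Of the 17, only miR-331, miR-155, miR-130b, miR-454 and miR-326 also passed under both scalings. For the other 12 the limma adjusted p ran from 0.0521 (miR-2887) to 0.230 (miR-148a) with upper-quartile scaling. With TMM scaling it ran from 0.0589 (miR-2887) to 0.173 (miR-148a). For 13 of the 17, all 4 of the libraries that stand apart were below every crop residue library, which held for 19 of all 335 tested. These 4 libraries also entered the test that picked the 17. The exceptions were miR-21-5p, miR-148a, miR-21-3p and miR-425-5p.

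Of the 7 tested members of the leukocyte list, 2 passed the threshold, miR-155 and miR-142-3p, both lower, where 5.07% of all miRNAs tested were called lower. All 7 had negative differences, as had 224 of all 335, and their median was -0.71, against -0.16 for all miRNAs tested. miR-155, a miRNA induced in activated lymphocytes and macrophages, was at 114, 484, 220, 139, 157 and 141 CPM in alfalfa hay libraries 1 to 6, against 285 to 513 CPM (median 389) with crop residues. All alfalfa hay libraries but library 2 were below the crop residue range. Its log2 fold change was -1.05 ± 0.47 (adjusted p = 0.0110), and it was -0.22 without the 4 libraries. miR-142-3p, which is restricted to blood cells, was at 337, 491, 321, 150, 262 and 96.6 CPM, against 368 to 532 CPM (median 422), a log2 fold change of -0.80 ± 0.50 (adjusted p = 0.0489). Without the 4 libraries it was -0.09.

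The other leukocyte miRNAs missed the threshold. miR-223, a miRNA of neutrophils and monocytes, was at 13.3 to 105 CPM with alfalfa hay and at 18.9 to 196 CPM with crop residues, a log2 difference of -1.27 ± 0.92 (adjusted p = 0.0799). miR-146b was at 220 to 604 CPM against 394 to 1230 CPM (-0.71 ± 0.47, adjusted p = 0.0618). miR-142-5p, the most abundant of the list, was at 2554 to 8005 CPM against 4920 to 8262 CPM (-0.48 ± 0.43, adjusted p = 0.150). The summed level of the list was 8836, 10615, 8054, 3952, 6553 and 4217 CPM in alfalfa hay libraries 1 to 6 and 7481 to 12564 CPM with crop residues. Libraries 4, 5 and 6 were thus below every crop residue library and library 1 was not. In whole tissue, fewer cells of a type and less of a miRNA per cell cannot be told apart, and the part of leukocyte content in the other differences was not tested.

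miR-21 is a miRNA that rises in inflamed and proliferating tissues, and miR-21-5p was the fourth most abundant miRNA of rumen. miR-21-5p was at 69137, 68384, 60104, 54473, 62475 and 40717 CPM in alfalfa hay libraries 1 to 6, against 64557 to 109901 CPM (median 86593) with crop residues. Here libraries 2 and 3 lay low with the others, so the split of the alfalfa hay group was not seen for this miRNA. The log2 fold change was -0.51 ± 0.28 (adjusted p = 0.0343) and remained -0.38 without the 4 libraries (adjusted p = 0.995), and with upper-quartile scaling it was -0.34 (adjusted p = 0.0968). Its other arm miR-21-3p was at 167 to 882 CPM, against 582 to 1255 CPM, with a log2 fold change of -0.95 ± 0.58 (adjusted p = 0.0474), and of -0.20 without the 4 libraries.

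miR-92a is a member of the miR-17-92 group of clusters, which favour cell proliferation. It was at 4364, 15361, 12989, 6669, 5675 and 9442 CPM in alfalfa hay libraries 1 to 6, against 11021 to 18390 CPM (median 14656) with crop residues. Libraries 1, 4, 5 and 6 were below all crop residue libraries. Its log2 fold change was -0.80 ± 0.44 (adjusted p = 0.0343), and it was -0.02 without the 4 libraries. Of the 15 tested members of this list, miR-92a alone passed the threshold, a share near the 5.07% of all tested miRNAs called lower. Negative differences were found for 13 of the 15, against 224 of all 335, with a median of -0.34, against -0.16.

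The miR-130, miR-301 and miR-454 family had 2 of 5 tested members past the threshold, both lower, where 5.07% of all tested were called lower, and a median log2 fold change of -0.53. miR-130b was at 28.8 to 72.9 CPM (median 44.99) with alfalfa hay and at 64.2 to 141 CPM (median 88.8) with crop residues, a log2 fold change of -0.90 ± 0.43 (adjusted p = 0.0166). miR-454 was at 12.4 to 49.3 CPM (median 28.8) against 37.9 to 65.7 CPM (median 52.7), a log2 fold change of -0.91 ± 0.44 (adjusted p = 0.0166). miR-130a, the most abundant member of the family, was at 725 to 1103 CPM against 731 to 1309 CPM, and its log2 difference was -0.18 ± 0.27 (adjusted p = 0.392). Without the 4 libraries the differences of miR-130b and miR-454 were -0.27 and -0.32.

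Among miRNAs of lipid and energy metabolism, 1 of 10 tested members passed the threshold (lower), where 5.07% of all tested were called lower, and their median log2 fold change was -0.27. This was miR-103, encoded within PANK genes and tied to insulin sensitivity, at 1664 to 3170 CPM (median 2299) with alfalfa hay against 2546 to 3393 CPM (median 3231) with crop residues. Its log2 fold change was -0.45 ± 0.26 (adjusted p = 0.0420), and it was -0.10 without the 4 libraries. miR-27b, the most abundant of this list and of the miR-23, miR-24 and miR-27 list, was at 95112 to 137532 CPM against 81998 to 115111 CPM, a log2 difference of 0.24 ± 0.19 (adjusted p = 0.105). The miR-378 family had 0 of 3 members past the threshold by limma (1 at an unadjusted p under 0.05), and miR-378, encoded within PPARGC1B, had a log2 difference of -0.32 ± 0.31 (adjusted p = 0.182). miR-148a, which targets the DNA methyltransferase DNMT1, was at 6891 to 13970 CPM (median 9906) against 9864 to 15478 CPM (median 13516), a log2 fold change of -0.45 ± 0.26 (adjusted p = 0.0420), and it was -0.21 without the 4 libraries. It was the only 1 of 3 tested miR-148 and miR-152 members past the threshold, where 5.07% of all tested were called lower. The other 2 differences were positive, up to 0.50, and the family's median was 0.08.

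The remaining lower miRNAs belong to none of the lists. miR-331 was at 137, 223, 166, 115, 101 and 89.4 CPM in alfalfa hay libraries 1 to 6, against 153 to 392 CPM (median 239), a log2 fold change of -0.92 ± 0.40 (adjusted p = 0.0110). Libraries 2 and 3 were within the crop residue range but below its median, and the difference without the 4 libraries was -0.38. miR-2887 was at 6.84, 41.0, 46.4, 1.66, 6.62 and 7.95 CPM, against 17.1 to 118 CPM (median 43.5), a log2 fold change of -1.83 ± 1.07 (adjusted p = 0.0420). miR-874 was at 3.77, 28.4, 37.6, 2.44, 9.19 and 7.70 CPM, against 15.4 to 46.0 CPM (median 25.4), a log2 fold change of -1.35 ± 0.82 (adjusted p = 0.0474). For miR-2887 and miR-874 libraries 2 and 3 sat in the middle or upper part of the crop residue range, and the differences without the 4 libraries turned to 0.08 and 0.29. The other 5 (miR-326, miR-6529, miR-128, miR-1307 and miR-425-5p) had log2 fold changes from -0.97 (miR-326, adjusted p = 0.0183) to -0.51 (miR-425-5p, adjusted p = 0.0485), and from -0.30 (miR-326) to -0.10 (miR-1307) without the 4 libraries. miR-128, a brain-enriched miRNA, was at 77.0 to 149 CPM against 118 to 261 CPM (-0.62 ± 0.38, adjusted p = 0.0474).

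**Figure D4:**
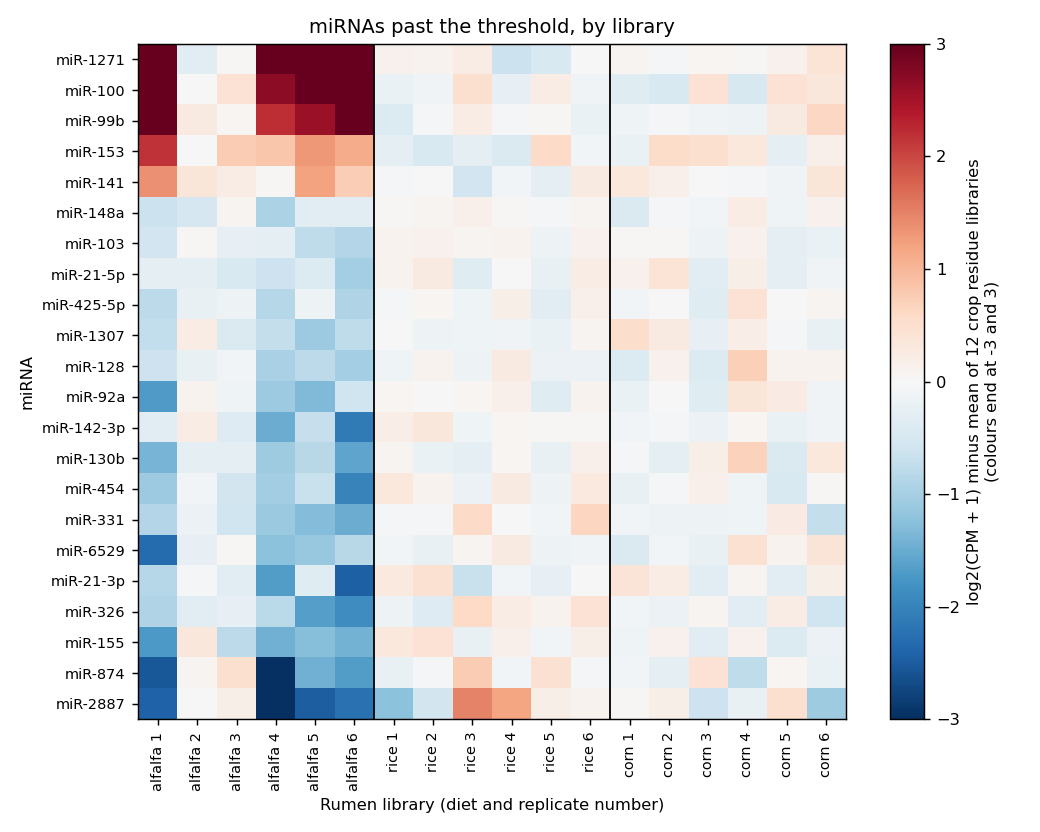
log2(CPM + 1) of the 22 miRNAs past the threshold in each rumen library, relative to the mean of the 12 crop residue libraries, with colours ending at -3 and 3. For 17 of the 22 miRNAs the columns of alfalfa hay libraries 1, 4, 5 and 6 all lie outside the range of the crop residue libraries. Among all 335 tested miRNAs these 4 libraries lie above that range for 6 and below it for 19.

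The size of the difference depended on which libraries entered the test. Leaving out 1 library at a time gave 7 to 58 calls, and 15 of the 18 libraries moved the count by more than 1.5 times. Without alfalfa hay library 2 there were 58 calls, and without library 3 there were 38, and all 22 miRNAs were among them in both cases. Without library 5 or library 6 there were 7. Only 6 miRNAs (miR-100, miR-99b, miR-331, miR-1271, miR-155 and miR-454) passed the threshold in each of these 18 tests.

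Of the 10 most abundant rumen miRNAs, only miR-21-5p passed the threshold. miR-143 held 17.4% ± 3.24 (SD, n = 18) of the mapped miRNA reads, followed by miR-27b with 10.4% ± 1.42, miR-26a with 10.3% ± 2.73, miR-21-5p with 7.60% ± 1.802 and miR-378 with 5.52% ± 1.31. For miR-143 the log2 difference between alfalfa hay and crop residues was 0.06 ± 0.28 (adjusted p = 0.822), and for miR-26a it was 0.02 ± 0.44 (adjusted p = 0.948). The others of the 10 most abundant were miR-22-3p (-0.11 ± 0.28), miR-205 (0.23 ± 0.33), miR-30a-5p (0.13 ± 0.27), miR-10b (0.51 ± 0.39) and let-7a-5p (-0.24 ± 0.29), with adjusted p values from 0.0959 (miR-10b) to 0.614 (miR-22-3p). miR-10b, encoded in a HOX cluster, was at 25714 to 42449 CPM against 16477 to 38801 CPM.

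The lists of the other 8 cell types or tissues had no member past the threshold by limma. The summed level of the stratified squamous epithelium list was 25814 to 54759 CPM with alfalfa hay and 29140 to 50735 CPM with crop residues. That of the smooth muscle list was 137630 to 209516 CPM against 118233 to 243920 CPM. Its most abundant member was miR-143. Endothelial miR-126 (both arms) held 16774 to 35939 CPM against 20300 to 39440 CPM, and its lowest 2 values of all rumen libraries were those of alfalfa hay libraries 1 and 4 (16774 and 17139 CPM). The fibroblast and mesenchyme list was at 3810 to 7369 CPM against 4247 to 9153 CPM, the red blood cell list at 263 to 867 CPM against 99.3 to 1430 CPM, and the striated muscle list at 48.2 to 119 CPM against 43.2 to 145 CPM. The small intestine list was at 2598 to 3563 CPM against 2652 to 4561 CPM, and the neural and enteroendocrine list at 98.6 to 455 CPM against 141 to 320 CPM. In these 8 lists 1 member, of the small intestine list, was under an unadjusted p of 0.05. The part of cell composition in the differences was not tested.

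Several families had differences all or mostly of 1 sign and no member past the threshold. All 10 let-7 and miR-98 members had negative log2 differences (median -0.32), and let-7a-5p, the most abundant, was at 14376 to 30504 CPM against 22314 to 35966 CPM. The same held for all 7 members of the miR-15 and miR-16 family (median -0.41), with miR-16b at 1998 to 4903 CPM against 3599 to 5777 CPM. In the miR-30 family 6 of 7 differences were negative (median -0.15), close to the median of all tested miRNAs, and in the miR-181 family 3 of 4 were (median -0.12). Both miR-221 and miR-222 were negative (median -0.41), as were all 3 members of the miR-34 and miR-449 list (median -0.54) and 7 of 8 members of the miR-362, miR-500, miR-502, miR-532 and miR-660 cluster (median -0.22). In the list of miR-10 and other HOX-cluster miRNAs 3 of 4 differences were positive (median 0.26), and in that of miR-23, miR-24 and miR-27 it was 6 of 7 (median 0.07). The medians of the miR-29 family, the miR-26 family, the miR-424, miR-450 and miR-542 cluster, and the miR-193 and miR-365 list lay between -0.06 and 0.03. miR-210, the miRNA of low oxygen, had a log2 difference of -0.10 ± 0.35 (adjusted p = 0.727). Since 224 of all 335 differences were negative, these shares are read against that background.

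When each crop residue was taken on its own, alfalfa hay differed from rice straw in 9 miRNAs, which is 2.69% of those tested, and from corn stover in 0 (0%) by limma. At an unadjusted p under 0.05 there were 93 and 56, respectively. These comparisons share the alfalfa hay libraries and are given side by side. The 9 miRNAs against rice straw were 5 higher (miR-1271, miR-100, miR-99b, miR-153 and miR-141) and 4 lower (miR-331, miR-155, miR-454 and miR-326). The log2 fold change of miR-1271 was 3.11 against rice straw (adjusted p = 0.0223) and 2.89 against corn stover (adjusted p = 0.0775). That of miR-100 was 2.21 (adjusted p = 0.0221) and 2.23 (adjusted p = 0.0674), and that of miR-155 was -1.18 (adjusted p = 0.0221) and -0.92 (adjusted p = 0.112). The 9 calls against rice straw fell to 0 (76 at an unadjusted p under 0.05) when only the 12 libraries of these diets were fitted, and to 0 (7 at an unadjusted p under 0.05) without alfalfa hay libraries 1, 4, 5 and 6. With upper-quartile scaling there were 17 higher and 4 lower, and with TMM scaling 8 higher and 4 lower. Against corn stover, leaving out the same 4 libraries left 0 calls, with 5 miRNAs at an unadjusted p under 0.05.

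Rice straw and corn stover did not differ for any miRNA at an adjusted p of 0.05 by limma (0 of 335, 0%), and 12 were under an unadjusted p of 0.05. The distance from the estimate to either end of its 95% interval had a median of 0.52 on the log2 scale. At that median, a smaller difference could not be told from none even at an unadjusted p of 0.05. The smallest p belonged to miR-211, at 3.08 CPM (median) with rice straw and 27.6 CPM with corn stover, a log2 difference of -1.95 (unadjusted p = 0.00675, adjusted p = 0.713). let-7c followed the opposite direction, with medians of 1624 and 901 CPM and a log2 difference of 0.72 (adjusted p = 0.713). Among the 22 miRNAs, miR-1271 had a log2 difference of -0.22 between both residues (adjusted p = 0.968) and miR-21-5p one of 0.0049 (adjusted p = 0.985).

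The rumen difference was then set against that of the same diets in duodenum, jejunum, liver and mammary gland of the same cows, over 288 miRNAs listed in all 5 tissues. The alfalfa hay difference in rumen departed from the mean of the other 4 tissues for 14 miRNAs, which is 4.86% of those tested, 5 more positive and 9 more negative in rumen. Without rumen alfalfa hay libraries 1, 4, 5 and 6 there were 0, with 2 at an unadjusted p under 0.05. For miR-1271 the rumen difference exceeded the mean of the other tissues by 2.60 ± 0.50 (SE) on the log2 scale (adjusted p = 0.000126), for miR-100 by 2.05 ± 0.36 (SE, adjusted p = 6.71e-05) and for miR-99b by 1.75 ± 0.33 (SE, adjusted p = 9.27e-05). For miR-874 the rumen difference lay below that mean, at -1.45 ± 0.29 (SE, adjusted p = 0.000183), as did those for miR-6529 at -0.85 ± 0.20 (SE, adjusted p = 0.00258) and miR-155 at -0.96 ± 0.23 (SE, adjusted p = 0.00456). This fit used 1 spread per miRNA for all 5 tissues. In the fit of rumen alone the SE of the alfalfa hay difference was larger for miR-1271 (0.64), miR-100 (0.43) and miR-99b (0.37). The adjusted p values of the fit of 5 tissues may therefore be too small where the rumen libraries of alfalfa hay spread widely.

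In alfalfa hay cows miR-1271 was at 35.9 to 60.7 CPM in duodenum, at 29.8 to 95.0 CPM in jejunum, at 3.70 to 5.35 CPM in liver and at 14.1 to 102 CPM in mammary gland. The highest value outside rumen was 205 CPM, in a mammary gland library of a cow fed crop residues. The jejunum had differences of the same sign for miR-1271, miR-100 and miR-99b, with log2 values of 1.40 for miR-1271 (adjusted p = 0.136), 1.04 for miR-100 (adjusted p = 0.136) and 1.01 for miR-99b (adjusted p = 0.0760), none past the threshold. In jejunum alfalfa hay libraries 1 to 6 miR-1271 was at 88.8, 29.8, 95.0, 55.8, 46.2 and 44.3 CPM. Library 3 was the highest and library 2 the lowest, also for miR-100 and miR-99b, and in rumen neither number stood apart. In duodenum miR-1271 was at 35.9, 43.7, 46.1, 54.1, 42.0 and 60.7 CPM in the same order.

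**Figure D5:**
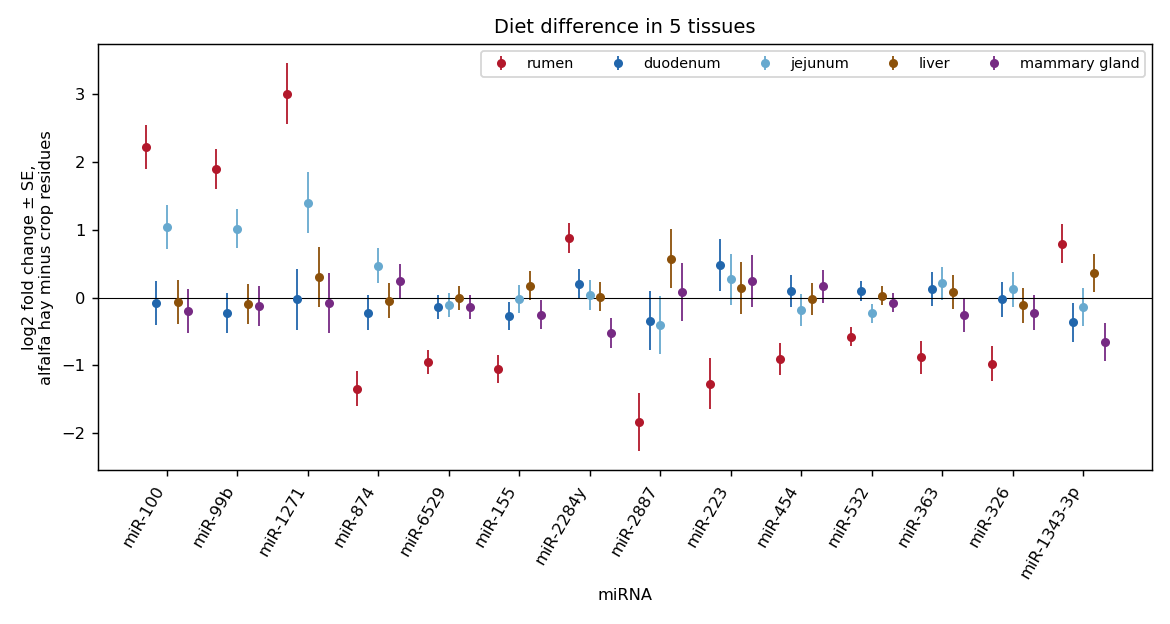
log2 fold change of alfalfa hay against crop residues, with bars of 1 SE, in 5 tissues for the 14 miRNAs whose rumen difference departed from the mean of the other 4 tissues. The rumen points of miR-1271, miR-100 and miR-99b lie at 3.00, 2.22 and 1.90, and the jejunum points of the same miRNAs lie at 1.40, 1.04 and 1.01.

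In the fit of all 5 tissues, the diets differed in rumen for 24 of 288 miRNAs, in jejunum for 2, in mammary gland for 1, and in duodenum and liver for 0. At an unadjusted p under 0.05 there were 61 in rumen, 21 in jejunum, 44 in mammary gland, 3 in duodenum and 7 in liver. An effect past the threshold in one tissue and not in another was tested only by the comparison with the mean of the other 4 tissues above.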

How the data were processed

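Small RNA libraries of 18 rumen epithelium samples (6 per diet) were analysed, and 72 libraries of 4 other tissues of the same cows were used in 1 comparison. The authors filtered reads with CASAVA 1.8, trimmed adaptors and aligned reads to bovine miRNA precursors with sRNAbench, allowing mismatches and several mappings per read. The deposited values are CPM, the reads of a miRNA over all mapped miRNA reads, although the study calls the files raw counts. The genome build was not given in the sources used here. The files of a tissue list the miRNAs its samples express, and others have no value.

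Diets were compared with limma 3.58.1 (R 4.3.3, eBayes with trend) on log2(CPM + 1), with alfalfa hay against the mean of both crop residues, for miRNAs above 1 CPM in more than 50% of rumen samples. Adjusted p values are Benjamini-Hochberg over all tested miRNAs, with a threshold of 0.05, and the fit was tested on simulated data. The simulation took its spread from the crop residue libraries alone. It therefore cannot show how the fit behaves with the wider spread and the split of the alfalfa hay libraries. A fold change on this scale understates that of rare miRNAs. In each library 100% of the CPM values up to 200 steps were whole multiples (within 0.02) of 1 step, which gave the reads per library. Intervals and floors cover counting error only where they rest on reads. All miRNAs past the threshold, the 10 most abundant, the most abundant of each list and the 5 with the smallest p of each other comparison could be named. The members and lists were chosen with earlier results of these data known. Upper-quartile and TMM scaling, other pseudocounts and filters, the replicate block and leaving out each library were planned. The voom fit, a spread per diet and leaving out the libraries that stand apart were added after seeing the data.

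The replicate numbers were not taken to pair samples across diets. Correlations of same-numbered libraries ran from -0.35 to 0.49 (10 of 18 over 0.1). Their mean was 0.12, against -0.03 for libraries with other numbers. Across tissues, the same diet and number were taken to mark 1 cow. The series design has all tissues taken from each cow, but no label links single samples to a cow, so the cow block rests on this reading of the titles. Figures used matplotlib 3.10.9.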

Additional observations from a re-analysis of the deposited data

Results flagged for a closer look

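Among 162 groups of 6 libraries (54 named miRNAs, 3 diets), 9 had 1 library far from the other 5, where chance gives about 1 in 20. In alfalfa hay, library 2 was high for miR-155 (484 CPM, next 220 CPM) and for miR-221 (1664 CPM, next 901 CPM), a miRNA of proliferating cells. In rice straw, library 5 was high for miR-153 (4.995 CPM, next 2.79 CPM) and low for miR-92a (11021 CPM, next 14473 CPM) and miR-103 (2759 CPM, next 3279 CPM). Rice straw library 6 was high for miR-192 (3779 CPM, next 2838 CPM), a miRNA of intestinal epithelium, and for miR-193b (2380 CPM, next 1635 CPM). In corn stover, library 6 was high for miR-1271 (26.9 CPM, next 21.8 CPM) and library 5 for miR-1260b (85.7 CPM, next 55.2 CPM).

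The alfalfa hay difference in rumen departed from the mean of the other 4 tissues for 14 miRNAs, tested by an interaction term in limma with a spread shared by all tissues. On the log2 scale it was more positive by 2.60 for miR-1271, 2.05 for miR-100, 1.75 for miR-99b, 0.99 for miR-1343-3p (adjusted p = 0.0475) and 0.94 for miR-2284y (adjusted p = 0.00922). It was more negative for miR-2887 (-1.81), miR-223 (-1.55), miR-874 (-1.45), miR-155 (-0.96), miR-363 (-0.92), miR-454 (-0.92), miR-326 (-0.91), miR-6529 (-0.85) and miR-532 (-0.53), with adjusted p values up to 0.0475 (miR-326). Without rumen alfalfa hay libraries 1, 4, 5 and 6 none of the 288 miRNAs passed by limma (0, with 2 at an unadjusted p under 0.05).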

How the results depend on the processing

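For alfalfa hay against crop residues, the number of calls (22 in the main fit) stayed between 15 and 30 under several other settings. These were pseudocounts of 0.1 and 5 CPM, no filter, a mean of at least 10 CPM, and 2 groups in place of 3. The others were upper-quartile scaling, a replicate block (30, of which 20 were among the 22) and voom on the recovered reads (24). With upper-quartile scaling, only 10 of the 22 were among the calls. There were 10 with TMM scaling and 11 with a spread per diet, and leaving out 1 library at a time gave 7 to 58. The count was 7 without alfalfa hay library 5 or 6, 9 without rice straw 4 or corn stover 2 or 4, 10 without alfalfa hay 1, rice straw 1, 2, 3 or 6 or corn stover 5, 11 without alfalfa hay 4, 13 without rice straw 5, 38 without alfalfa hay 3 and 58 without alfalfa hay 2. The cause was not tested. Against rice straw, the 9 calls became 21 with upper-quartile scaling, 16 with the replicate block and 0 with only the 12 libraries of these diets. The numbers were not taken to pair samples across diets (5 of 18 libraries correlated best with their own number). Against corn stover, and between the residues, 0 calls were made under each alternative run. The 14 calls against the other 4 tissues became 13 with the cow as a block, 13 without liver alfalfa hay library 2, and 13 to 19 with both scalings and a pseudocount of 5 CPM. Without the 4 libraries that stand apart there were 0 against crop residues, 0 against rice straw and 0 against the other tissues.

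The sign turned without these 4 libraries for miR-1271 (-0.14 against crop residues, -0.030 against rice straw, -0.25 against corn stover and -0.54 against the other tissues), miR-874 (0.29, and 0.18 against the other tissues) and miR-2887 (0.079), and for 3 miRNAs that had not passed the threshold, miR-143 (-0.081), miR-205 (-0.083) and miR-22-3p (0.087). miR-22-3p was also at 0.063 with upper-quartile and 0.025 with TMM scaling, and miR-26a ran from -0.10 to 0.27 when 1 library was left out. The files hold CPM, and the planned edgeR and DESeq2 fits were not run. On the reads recovered from the CPM, only the voom fit was run. Alfalfa hay is represented by 6 cows, of which 2 remain without the 4 libraries that stand apart, so calls lost there also rest on fewer libraries. In rumen 3 reads were worth up to 1.28 CPM, so values near 1 CPM rest on few reads.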

Other observations

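The second principal component of the rumen libraries, with 21.9% of the variance, was led by miR-381, miR-127 and miR-379, followed by miR-411a, all encoded in the imprinted DLK1-DIO3 region. These were picked after their values were seen. miR-127 was at 1005 to 3819 CPM (median 1736) with alfalfa hay and at 402 to 4434 CPM (median 1282) with crop residues, and miR-381 was at 11.3 to 78.8 CPM (median 30.6) against 6.03 to 84.9 CPM (median 22.5). Both ranges overlapped nearly in full, and the log2 differences were 0.62 for miR-127 (adjusted p = 0.495) and 0.51 for miR-381 (adjusted p = 0.613). Their spread between cows of 1 diet was therefore wider than the difference between diets.

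Liver library 2 of the alfalfa hay group held 1525 CPM of miR-205 and 1038 CPM of miR-141, while the other liver libraries held at most 13.0 CPM of miR-205 and at most 421 CPM of miR-141.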
